A study of Mus musculus with 9 samples.

Results

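The BCL2 family survival genes described here are 9 genes of the mitochondrial pathway of cell death, read in iNKT1 cells of the mouse thymus, liver and spleen. They are Bcl2, Bcl2l1 and Mcl1, which oppose cell death, Bax and Bak1, which carry it out, and Bcl2l11, Bid, Bbc3 and Bad, which trigger it. They were taken by name and not by any measured value, and all 9 were found among the 14004 genes of the table and passed the filter on low values, which 13309 genes passed. The study measured RNA by RNA-seq in 9 libraries, 3 from each tissue, with 3 independent replicates per tissue stated by the submitters. Every library came from untreated C57BL/6 mice of the genotype Tbx21CreTg;Rosa26-LSL-YFP+/+, in which Cre is driven by Tbx21, the gene of the transcription factor T-bet, and switches on a yellow fluorescent reporter. All 3 groups share strain, genotype and lack of treatment as labelled, and tissue is the only label that differs. The labels used here give neither the age of the mice nor whether animals were pooled, so p-values measure the spread between these libraries.

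iNKT cells (invariant natural killer T cells) recognise lipids presented by CD1d, and iNKT1 cells are the subset that expresses T-bet and depends on IL-15 for survival. Proteins of the BCL2 family decide whether the outer membrane of the mitochondrion stays intact. BCL2, BCL-XL (from Bcl2l1) and MCL1 hold BAX and BAK in check, the BH3-only proteins BIM (from Bcl2l11), BID, PUMA (from Bbc3) and BAD bind and neutralise them, and freed BAX and BAK open pores that release cytochrome c and start the caspase cascade. In lymphocytes, cytokines of the common gamma chain family sustain Bcl2 and Mcl1, and BIM is the main trigger of death when such signals are withdrawn.

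What the family shares in sequence is the BH3 region, the short helix through which its members bind each other. A pattern of a leucine codon, any 3 codons, a codon for glycine, alanine or serine, and an aspartate codon was searched in the longest coding sequence of each gene (GENCODE M21, GRCm38). It occurred exactly once in each of the 9 members. Of 21773 mouse coding sequences, 33.8% held a match and 23.2% held exactly 1, so the match by itself does not define the family. The windows of 6 members that span the 3 classes are shown because they carry the feature by which guardians, effectors and triggers meet; capitals mark the matched codons, each line runs 5′ to 3′ on the coding strand, and the flanks are in lower case.
Bcl2: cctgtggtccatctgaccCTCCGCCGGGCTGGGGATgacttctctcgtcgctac
Mcl1: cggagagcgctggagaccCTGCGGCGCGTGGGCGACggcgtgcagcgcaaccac
Bak1: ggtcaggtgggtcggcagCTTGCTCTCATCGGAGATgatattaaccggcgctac
Bcl2l11: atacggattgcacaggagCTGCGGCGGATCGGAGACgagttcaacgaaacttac
Bbc3: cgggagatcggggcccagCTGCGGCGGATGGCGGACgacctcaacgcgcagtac
Bad: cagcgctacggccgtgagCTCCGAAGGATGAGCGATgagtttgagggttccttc
The Bcl2 window lies at chr1:106712566-106712619 on the minus strand, codons 94 to 99 of 236 being the match. The Bcl2l11 window lies at chr2:128147132-128147185 on the plus strand, with the match at codons 150 to 155 of 196. On the plus strand as well are Mcl1 (chr3:95659418-95659471), Bbc3 (chr7:16313755-16313808) and Bad (chr19:6950774-6950827), and on the minus strand Bak1 (chr17:27022522-27022575). Each of these windows lies in 1 coding exon. The small residue of the pattern was encoded as glycine in 7 members, as alanine in Bbc3 and as serine in Bad, and the 9 matched stretches were all different at the level of bases.

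Values are the authors' normalised read counts, which are not whole numbers. The read counts behind them were recovered from the equal steps on which low values lie, and totals ran from 3877572 reads in liver replicate 3, the shallowest, to 39568081 in spleen replicate 3. In liver replicate 3, 72.95% of low values fell within 0.1 reads of a whole number, against at least 98.17% in the other libraries, so its low counts are less sure. All 8 genes of the iNKT1 and T cell list, Zbtb16, Tbx21 and Klrb1c among them, had reads in every tissue, with summed values of 91157 to 153048. Markers of other cells differed by library: 5 hepatocyte genes summed to 1350 to 1709 in liver, at most 269.6 in thymus and at most 14.05 in spleen, and B cell genes other than Ighm had no read in thymus but summed to 2122 in spleen replicate 1. Ighm itself had reads in every library, at 3157 to 5350 in thymus, 5257 to 7338 in liver and 5260 to 9283 in spleen. The list of thymocyte genes (6 of 8 in the table) summed to 1878 to 7468 in thymus, 6776 to 9203 in liver and 5725 to 10287 in spleen, mostly from Cd4, which mature T cells also express. Rag1 and Dntt, which mark immature thymocytes, read 486.2 and 11.27 in thymus replicate 3 and at most 0.8149 and 0.6305 in the other 8 libraries. Cd8a of the same list read 1116, 145.9 and 85.84 in liver replicates 1 to 3 and 256.9 in thymus replicate 3. It had no read in the other 5 libraries. Erythroid genes summed to at most 605.6 in any library. Xist, the RNA of the inactive X chromosome, reached 84543 to 107736 in the libraries numbered 2 and at most 125.2 elsewhere, except thymus replicate 3, which had 16531 together with 7016 reads of 4 Y-linked genes.

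None of the 9 members passed an adjusted p of 0.05 between tissues in limma-trend, a linear model fitted to log2(value + 1) of all genes and all 9 libraries. In liver against thymus 0 of 9 members passed, where 0.323% of all genes tested did, and none had an unadjusted p under 0.05, which 11.6% of all genes had. In spleen against thymus 0 of 9 passed against 0.398% of all genes, and Bcl2 was the 1 member with an unadjusted p under 0.05, against 11.7% of all genes. In liver against spleen 0 of 9 passed against 0.015% of all genes, and Bcl2 was again the 1 member under 0.05 unadjusted, against 3.03%. The test of any difference among the tissues called 0 of 9 members, against 0.346% of all genes, with Bcl2 alone under 0.05 unadjusted, against 9.95%. Count models on the recovered reads also called 0 of 9 members in each pair of tissues. For edgeR the share of all genes called was 0.165%, 0.278% and 0.015% in the 3 comparisons in the same order, and for DESeq2 it was 3.49%, 3.87% and 0.165%. The median log2 fold change of the members was 0.48 in liver against thymus, 0.24 in spleen against thymus and 0.24 in liver against spleen, where the medians of all genes tested were 0.29, 0.33 and -0.02. Both thymus comparisons use the same thymus libraries.

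**Figure D1:**
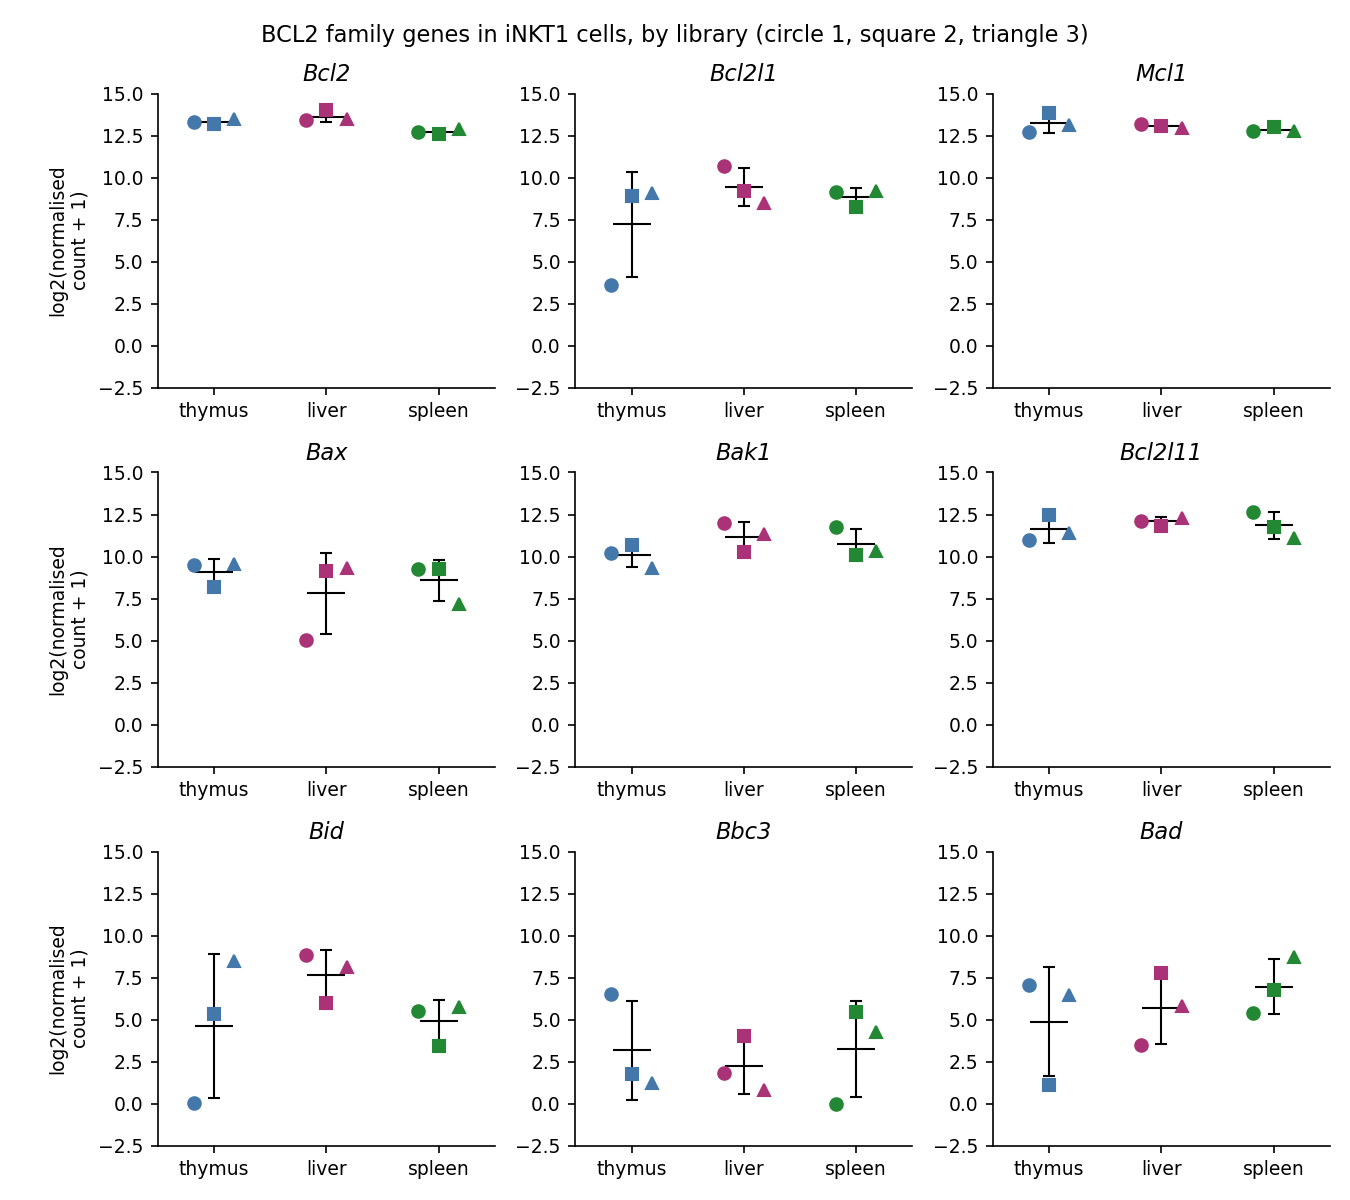
Level of each member in each library on the log2(normalised count + 1) scale, with circles, squares and triangles for replicates 1, 2 and 3, bars for the mean and whiskers for 1 SD of 3 libraries. Bcl2 and Mcl1 lie high and close together, while Bcl2l1, Bax, Bid, Bbc3 and Bad each have a library far from the others of its tissue.

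Bcl2 encodes the founding guardian of the family and lies at chr1:106538178-106714274 on the minus strand. Its normalised count was 10163, 9265 and 11633 in thymus replicates 1 to 3, 10881, 16418 and 11247 in liver, and 6599, 6137 and 7606 in spleen. All 3 spleen libraries were below all thymus and all liver libraries, while thymus and liver overlapped. The means were 10354 ± 1196 in thymus, 12849 ± 3096 in liver and 6780 ± 751.3 in spleen (SD, n = 3 each), backed by 1863 to 19115 reads per library. Of the 9 members, 2 did not overlap between liver and spleen, Bcl2 and Bid, against 12.7% of all genes. Between spleen and thymus 1 of 9, Bcl2, did not overlap, against 15.3% of all genes, and between liver and thymus 0 of 9, also against 15.3%.

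On the log2 scale Bcl2 was 0.90 higher in liver than in spleen, with a 95% interval of 0.39 to 1.42, and the ratio of the means was 1.895. The unadjusted limma p was 0.00203 and the adjusted p was 1. Spleen differed from thymus by -0.61 (interval -1.13 to -0.09), with an unadjusted p of 0.0237 and an adjusted p of 0.335. Liver differed from thymus by 0.29 (interval -0.22 to 0.81), with an adjusted p of 0.668. Without thymus replicate 3, the library with both Xist and Y-linked reads, which also had the Rag1 reads, the spleen against thymus value was -0.52 with an unadjusted p of 0.069. The unadjusted p of this comparison was also above 0.05 in 4 other settings. It was 0.0519 without spleen replicate 1 and 0.0785 without spleen replicate 2. With equal library totals the value was -0.44 with an unadjusted p of 0.14, and -0.45 with 0.0974 when mitochondrial genes were left out of the totals. Leaving out liver replicate 2, the highest library, brought the liver against spleen value of Bcl2 to 0.71. When each library was weighted by its estimated quality, Bcl2 passed in liver against spleen, with a log2 fold change of 1.02 and an adjusted limma p of 0.0362, and 0.135% of all genes passed. Over all 21 alternative settings the adjusted p of that comparison ran from 0.0362 to 1 and its log2 fold change from 0.71 to 1.02. In bulk RNA, fewer cells with a transcript and less RNA per cell cannot be told apart, for this gene as for the others. The summed hepatocyte genes (5 of 6 in the table) were, like Bcl2, higher in every liver library than in every spleen library, with Alb at 0 in spleen replicates 2 and 3, and their part in the difference was not tested. The Bcl2 locus overlaps an antisense gene, D630008O14Rik, over 33103 bases of gene span, introns included. On the same strand it overlaps Gm37053 over 2087 bases and Mir3473f over 136. Overlap of exons was not computed, and the sources used here do not say whether counting used strand. How far reads of these overlapping genes were mixed is therefore not known.

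**Figure D2:**
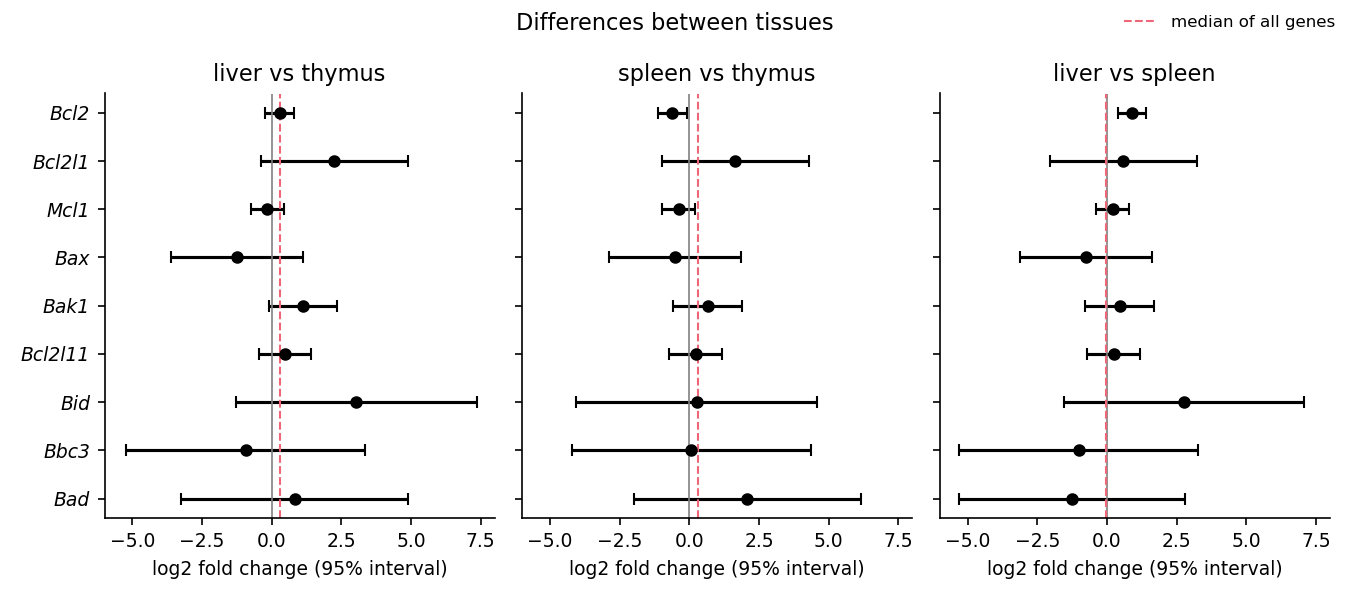
Log2 fold change of each member between tissues, as dots with 95% intervals from limma-trend on log2(normalised count + 1), with the median of all genes as a dashed line. The interval of Bcl2 leaves out 0 in spleen against thymus and in liver against spleen; every other interval of the 9 members spans 0, and those of Bid, Bbc3 and Bad are the widest.

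Mcl1 encodes a guardian with a very short-lived protein that lymphocytes need at all stages, and lies at chr3:95658788-95663176 on the plus strand. It stood at 6764, 14430 and 8955 in the thymus libraries, 9264, 8663 and 7837 in liver, and 7078, 8137 and 6955 in spleen. All 3 tissues overlapped, and the thymus held both the lowest and the highest library. Tissue means were 10050 ± 3948, 8588 ± 716.3 and 7390 ± 650.2 in thymus, liver and spleen (SD, n = 3 each). Liver differed from thymus by -0.16 on the log2 scale (SE 0.28, interval -0.75 to 0.44, adjusted p = 0.858 by limma), and liver from spleen by 0.22 (interval -0.38 to 0.81). These intervals leave out a doubling or a halving of Mcl1 in liver against either tissue. From lowest to highest library Mcl1 spanned 2.13-fold in thymus, 1.18-fold in liver and 1.17-fold in spleen.

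Bcl2l1 encodes BCL-XL and the shorter, death-promoting BCL-XS by splicing, which a count per gene does not separate; it lies at chr2:152780668-152831728 on the minus strand. Thymus libraries gave 11.23, 482.2 and 547.8, liver libraries 1663, 581.9 and 352.2, and spleen libraries 553.9, 308.2 and 580.4. The value of thymus replicate 1 rested on 10 reads and was far below every other library, liver replicate 1 was far above, and the remaining 7 libraries of all tissues lay between 308.2 and 581.9. Liver differed from thymus by 2.24 on the log2 scale (SE 1.24, interval -0.40 to 4.88, adjusted p = 0.497 by limma). The same value was 0.44 at its lowest and 3.19 at its highest over the alternatives, so its size depended on single libraries. Means were 347.1 ± 292.7 in thymus, 865.8 ± 700.2 in liver and 480.8 ± 150.1 in spleen (SD, n = 3 each).

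Of the effectors, Bak1 (chr17:27019810-27029009, minus strand) encodes BAK, which sits in the mitochondrial membrane at rest. It measured 1172, 1637 and 641.8 in thymus, 4075, 1222 and 2544 in liver, and 3452, 1098 and 1284 in spleen. Tissues overlapped, with liver replicates 1 and 3 and spleen replicate 1 above all thymus libraries. The mean was 1150 ± 498.1 in thymus, 2614 ± 1428 in liver and 1945 ± 1308 in spleen (SD, n = 3 each). Liver exceeded thymus by 1.12 on the log2 scale (SE 0.58, interval -0.11 to 2.35), with an adjusted limma p of 0.468, the smallest of the members in that comparison. The 3 libraries with the most Bak1 were also those with the highest sums of B cell genes other than Ighm, 746.6 in liver replicate 1, 213.2 in liver replicate 3 and 2122 in spleen replicate 1, and of myeloid genes, 1298, 541.4 and 3040 in the same libraries. In the other libraries these sums were at most 83.13 and 315.1, and in the thymus 4 of the 5 B cell genes had no read while Bak1 was at 641.8 or more. Ighm did not follow this order. It read 7338 and 5257 in liver replicates 1 and 3 and 9002 in spleen replicate 1, and 3157 to 9283 over all 9 libraries. The part of such cells in the Bak1 values was not tested. Bak1 also lies across Ggnbp1, on the opposite strand, over its whole gene span of 9200 bases, of which exons make up 2.407 kilobases. Overlap of exons was not computed, so how far reads of the pair were mixed is not known.

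Bax (chr7:45461697-45466898, minus strand) encodes the effector that waits in the cytosol and moves to mitochondria. Its values were 730.9, 288 and 753.3 in thymus, 32.16, 552.7 and 641.8 in liver, and 619.5, 615.7 and 144.4 in spleen. Liver replicate 1, where the value came from 37 reads, and spleen replicate 3 were low, and the other libraries of the 3 tissues covered one common range. Liver differed from thymus by -1.25 on the log2 scale (SE 1.12, interval -3.63 to 1.13, adjusted p = 0.694 by limma), and without a single library this value ran from -2.00 to 0.14. Liver replicate 1, low in Bax, was the library highest in Bak1 and in Bcl2l1. The gene span of Bax shares 915 bases with the protein-coding Gm45808 on the same strand, and overlap of exons was not computed.

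Bcl2l11 encodes BIM, the BH3-only protein that removes lymphocytes deprived of cytokine, and lies at chr2:128126038-128162547 on the plus strand. Thymus libraries held 1984, 5769 and 2669, liver libraries 4523, 3642 and 5015, and spleen libraries 6498, 3470 and 2218. Liver values lay inside the range of both other tissues, so no pair of tissues separated. The 3 means were 3474 ± 2017 in thymus, 4393 ± 695.5 in liver and 4062 ± 2201 in spleen (SD, n = 3 each). Liver differed from thymus by 0.48 on the log2 scale (interval -0.47 to 1.43, adjusted p = 0.708 by limma) and from spleen by 0.24 (interval -0.71 to 1.19).

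The remaining triggers were low and uneven. Bid (chr6:120891930-120916853, minus strand), whose protein links death receptors to mitochondria once cut by caspase-8, had no read in thymus replicate 1, 39.35 and 364.6 in the other thymus libraries, 463.8, 62.62 and 283.5 in liver, and 45.42, 9.563 and 52.08 in spleen. Every liver library was above every spleen library, with means of 270 ± 200.9 and 35.69 ± 22.87 (SD, n = 3 each), and thymus overlapped both. The log2 fold change of liver against spleen was 2.78 with an interval of -1.53 to 7.09 and an adjusted limma p of 1. A count of 0 in thymus replicate 1 allows up to 3 reads, a value of 3.36, as far as counting error goes. The gene span of Bid shares 913 bases with that of Bcl2l13 on the opposite strand. It also shares 2094 bases with Gm44260 on the same strand and 318 with Gm17812, a pseudogene, on the opposite strand. Overlap of exons was not computed.

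Bbc3, which encodes PUMA, a target of p53 (chr7:16308393-16318205, plus strand), was the lowest member. It gave 92.83, 2.348 and 1.307 in thymus, 2.58, 15.43 and 0.7409 in liver, and 0, 42.11 and 18.57 in spleen, from 0 to 83 reads. No tissue stood apart, and the 2 libraries without a read, liver replicate 3 and spleen replicate 1, allow up to 18.1 and 2.24 on the same scale. Bad (chr19:6941861-6951899, plus strand), whose protein is held inactive by phosphorylation under growth factor signalling, read 132.3, 1.185 and 87.8 in thymus, 10.41, 220.6 and 55.68 in liver, and 41.69, 108 and 416.3 in spleen. Its tissues overlapped as well, and thymus replicate 2 rested on 1 read. Bad shares 620 bases of gene span with Gpr137 on the opposite strand. Spleen against thymus gave 2.08 for Bad on the log2 scale (SE 1.91, interval -1.99 to 6.15, adjusted p = 0.699 by limma). At this spread between libraries, differences of several fold in Bid, Bbc3 or Bad were not detectable.

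**Figure D3:**
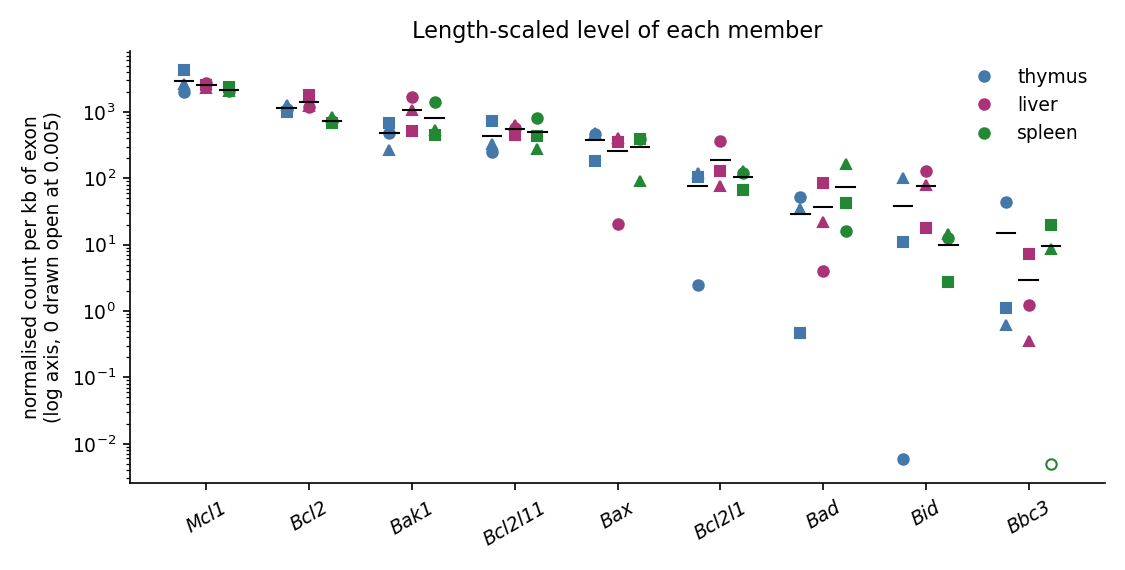
Normalised count per kilobase of exon for each member on a log axis, by tissue and library (shapes as for replicates 1 to 3, short lines for tissue means, an open symbol for a 0). Mcl1 is above Bcl2 in all 9 libraries, and Bbc3 is lowest on average.

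Divided by the length of all annotated exons, the members fell into an order. This length takes in the exons of every annotated transcript, expressed or not, so the order between genes is approximate. It was 9.157 kilobases for Bcl2 and 3.418 for Mcl1. Undivided, Bcl2 was above Mcl1 in every library but thymus replicate 2 and spleen replicates 1 and 2. Mcl1 was highest, with a mean of 2538 normalised counts per kilobase over the 9 libraries, and its lowest library, 1979, was above the highest of Bcl2, 1793. Bcl2 followed at 1091 per kilobase, then Bak1 at 790.6, Bcl2l11 at 495.3, Bax at 308.7 and Bcl2l1 at 123.1. Bad at 46.65, Bid at 41.34 and Bbc3 at 9.203 closed the order. Beyond the first step no neighbours were separated: each of the next 5 pairs, from Bcl2 over Bak1 to Bcl2l1 over Bad, kept its order in 7 of 9 libraries, Bad exceeded Bid in 5 of 9, and Bid exceeded Bbc3 in 7 of 9. In spleen the mean of Bak1, 807.9 per kilobase, was above that of Bcl2, 740.5, whereas in thymus Bcl2 stood at 1131 and Bak1 at 477.9. The spleen order rested on replicate 1, with 1434 for Bak1 and 720.6 for Bcl2 per kilobase; in replicates 2 and 3 Bak1 was below Bcl2, at 456.2 against 670.2 and at 533.6 against 830.6. Spleen replicate 1 also had the highest B cell and myeloid sums, whose part was not tested.

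Ratios within a library do not depend on how that library was scaled. They are ratios of normalised counts without a correction for length, so they are read across libraries and not as one gene exceeding another. Bcl2 over Bcl2l11, guardian over trigger, was 2.36, 0.68 and 2.12 on the log2 scale in thymus replicates 1 to 3, 1.27, 2.17 and 1.17 in liver, and 0.02, 0.82 and 1.78 in spleen. The ratio was highest in thymus replicate 1 and lowest in spleen replicate 1 and overlapped between all tissues, with means of 1.72 ± 0.91, 1.54 ± 0.56 and 0.87 ± 0.88 (SD, n = 3 each). Mcl1 over Bcl2l11 was 1.77, 1.32 and 1.75 in thymus, 1.03, 1.25 and 0.64 in liver, and 0.12, 1.23 and 1.65 in spleen. Here every thymus library was above every liver library, while spleen overlapped both. The ratio had no test, and the share of other gene pairs that separate was not computed. Of single genes, 15.3% did not overlap between liver and thymus. Bcl2 over Mcl1 was 0.59, -0.64 and 0.38 in thymus, 0.23, 0.92 and 0.52 in liver, and -0.10, -0.41 and 0.13 in spleen. All 3 liver libraries lay above all 3 spleen libraries in this ratio, and thymus replicate 2, the library highest in Mcl1, was lowest of all. Between liver and spleen 12.7% of single genes did not overlap, Bcl2 itself among them. Bcl2l1 over Bcl2l11 ran from -7.46 in thymus replicate 1 to -1.44 in liver replicate 1, and Bcl2 over Bax from 3.32 in spleen replicate 2 to 8.40 in liver replicate 1. The lowest value of the first and the highest of the second come from libraries in which Bcl2l1 rested on 10 reads and Bax on 37. No other pair of tissues separated in the ratios given here.

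**Figure D4:**
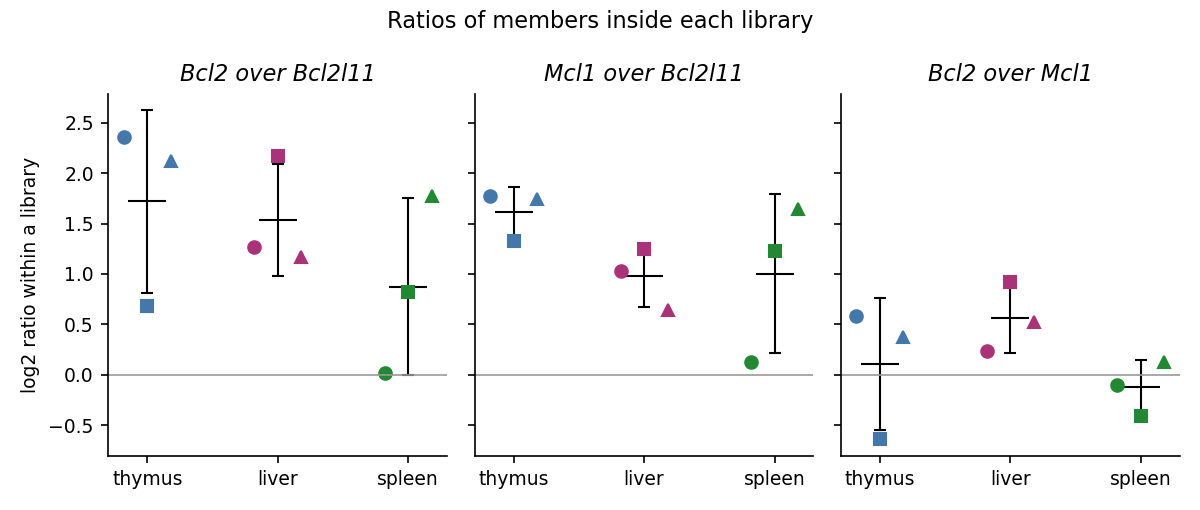
Log2 ratio of 2 members inside each library, by tissue, with bars for the mean and whiskers for 1 SD of 3 libraries. Spleen replicate 1 has the smallest log2 values of Bcl2 over Bcl2l11 and Mcl1 over Bcl2l11, 0.02 and 0.12; counts are not corrected for length.

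The spread between replicates differed widely among the members. The SD of log2 values between replicates of a tissue, pooled over the 3 tissues, was 0.23 for Bcl2 and 0.33 for Mcl1, 0.66 for Bcl2l11 and 0.82 for Bak1. It was 1.62 for Bax and 1.94 for Bcl2l1, and 2.45, 2.56 and 2.73 for Bad, Bbc3 and Bid. Genes of a higher level have a smaller SD in general, so each member was set beside genes of its own level. Among genes of a like mean level, 82.2% had a larger SD than Bcl2 and 52.3% a larger SD than Mcl1. For Bcl2l11 this share was 18%, for Bak1 26.5%, for Bax 22.1% and for Bcl2l1 12%. It was 42.6% for Bad, 47.3% for Bbc3 and 30.7% for Bid, so their large SD was less unusual for their level. Bcl2 was thus among the more even genes of its level, and Bcl2l1 among the more uneven.

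**Figure D5:**
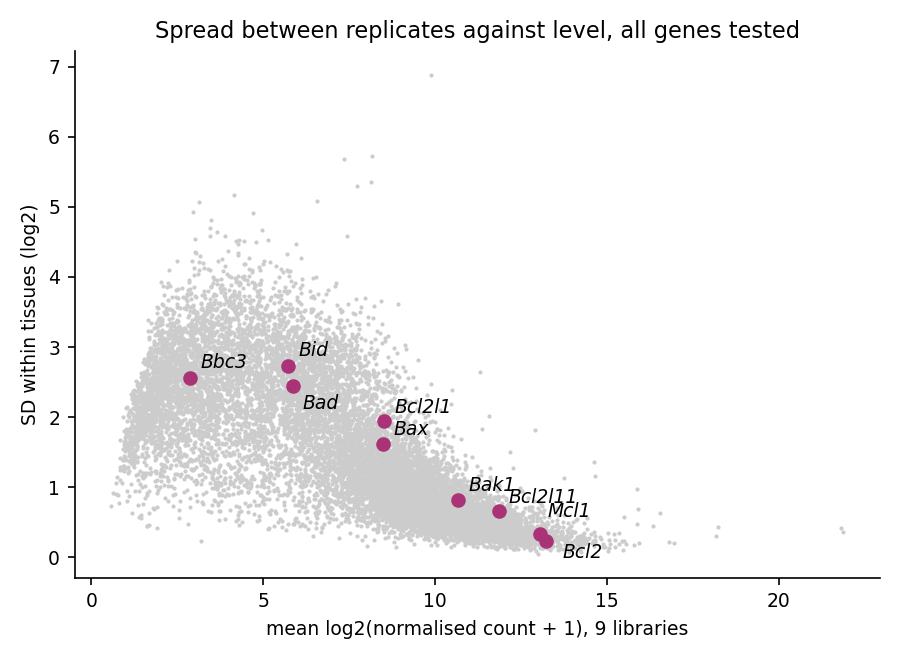
SD of log2 values between replicates of a tissue against the mean level, for each gene tested (grey) and the 9 members (coloured). Bcl2 sits low for its level at an SD of 0.23, and Bcl2l1 high at 1.94.

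The genes whose profile over the 9 libraries was most like a member's were named among 8897 genes with a mean of at least 100, by Pearson correlation of log2 values. For Bcl2 they were Cyth4 (r = 0.910), Cep170b (0.897) and Dazap2 (0.880). For Bcl2l11 they were Aar2 (0.933), Sdhd (0.931) and Smc4 (0.927), and for Mcl1 Ifnar1 (0.962), Elf1 (0.962) and Leprotl1 (0.955). Bax was nearest to Per3 (0.936), Timm17b (0.927) and Sit1 (0.913). The points share 9 libraries, their depth and their scaling, and the closest of so many genes is close by selection, so these are descriptions only.

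Other genes of the pathway were counted by list. Beside the calls of each list, limma called 0.323% of all genes in liver against thymus. It called 0.398% in spleen against thymus and 0.015% in liver against spleen. Of 15 further relatives of BCL2, 9 were in the table, and limma called 0 of 9 in each comparison. Bnip3l, a mitochondrial receptor of mitophagy, was the most abundant of them per kilobase at 658.1, with values of 2147 to 3993 over all libraries, followed by Bcl2a1b at 617.7 per kilobase, which has near-identical gene copies and is therefore uncertain. In liver against thymus 1 of 9 relatives had an unadjusted limma p under 0.05, against 11.6% of all genes, and none did in the other comparisons. This relative was Bcl2l2, which encodes the guardian BCL-W. It measured 181 to 282.5 in liver and at most 30.14 in thymus, without overlap, with a ratio of the means of 22.09, a log2 fold change of 5.79 that includes a thymus library with no read, and an adjusted limma p of 0.288. Pmaip1, which encodes the BH3-only protein NOXA, read 1597 in thymus replicate 2 and at most 31.69 in the other 8 libraries.

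Downstream of the mitochondrion, limma called 0 of 13 genes from Apaf1 and Cycs to the caspases in each comparison. Of these, 2 of 13 had an unadjusted p under 0.05 in spleen against thymus, against 11.7% of all genes. Diablo, an antagonist of caspase inhibitors, had a log2 fold change of 1.72 (adjusted p = 0.412 by limma). Casp9, the initiator caspase, had 3.98 (adjusted p = 0.399 by limma), a value that rested on a thymus library with no read. Its thymus libraries reached 256.7 and overlapped spleen, with a lowest value of 173.8, and the ratio of the means was 4.505. Among 10 upstream regulators, such as Trp53 and Foxo3, 0 were called in each comparison. Pim2 was under 0.05 unadjusted by limma in liver against thymus, 1 of 10 against 11.6% of all genes. Usp9x, a deubiquitinase of MCL1, was under 0.05 in spleen against thymus, 1 of 10 against 11.7%. The median log2 fold change of the upstream list in liver against thymus was -0.18, and that of the downstream list 0.36, beside 0.29 for all genes.

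The only gene of these lists that passed in limma was Il7r, the receptor chain for IL-7, in liver against thymus. It was 1 of 8 genes of cytokine signalling to survival, where 0.323% of all genes passed. With Il2rb and Il15ra, 3 of 8 had an unadjusted limma p under 0.05 in that comparison, against 11.6% of all genes. Il7r read 27831, 39747 and 50118 in the thymus libraries from lowest to highest, 8546, 15547 and 17003 in spleen, and 2109, 4131 and 4674 in liver. The 3 tissues did not overlap. Liver had less Il7r than thymus, by -3.47 on the log2 scale (SE 0.34, adjusted p = 0.0002 by limma), and passed in 21 of 21 alternatives. Its spleen against thymus value of -1.54 (adjusted p = 0.0652, passing in 5 of 21 alternatives) and its liver against spleen value of -1.93 (adjusted p = 0.127, passing in 4 of 21) did not pass. Il2rb, the chain that IL-2 and IL-15 share, read 61549 to 71230 in liver against 36385 to 40797 in thymus, without overlap, at a log2 fold change of 0.79 and an adjusted p of 0.0595. In spleen against thymus, Il7r, Il2rg and Il15ra had an unadjusted limma p under 0.05, 3 of 8 against 11.7% of all genes. In liver against spleen, Il7r and Il2rb did, 2 of 8 against 3.03%. Il2rg, the common gamma chain, read 15165 to 21273 in spleen, 7814 to 11753 in thymus and 11233 to 15015 in liver. Its spleen libraries overlapped neither tissue, with an adjusted limma p of 0.166 against thymus. Bcl2, beside these receptors, was higher in the mean in liver than in thymus by 1.24-fold, with overlapping libraries. It was lowest in spleen, where Il2rg was highest.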

How the data were processed

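RNA-seq of 9 libraries of iNKT1 cells, 3 per tissue, was sequenced for 76 cycles, per the labels' protocols. The submitters' processing notes list mm10, Trimmomatic 0.33, TopHat2 2.1.0, HTSeq 0.6.1 and edgeR, without roles; the scaling is not given in the sources used here. The authors deposited normalised read counts, a signal that is not whole-numbered, with column totals of 22363922 to 32037024. A count test had been planned, with a fallback for normalised values, and the fallback was used: limma-trend (limma 3.58.1, R 4.3.3) on log2(value + 1), genes kept where 3 or more libraries had a value of 1 or more, tissue as the only term, two-sided, Benjamini-Hochberg adjustment over all 13309 genes, threshold 0.05. On this scale the pseudocount pulls in the change of low genes, but a library at or near 0 can make a fold change larger than the ratio of the means. Reads were recovered per library from the steps between low values (93.47% of 15737 values of at most 20 reads within 0.1 reads of a whole number) and used with edgeR 4.0.16 and DESeq2 1.42.0 as alternatives. Only the limma-trend fit for liver against thymus was run on simulated data, with the outcome not given here. Read recovery, the count models and the other comparisons were not simulated. Symbols matched 13359 of the Ensembl gene identifiers in the table and 645 had none. Positions and exon lengths are from GENCODE M21 (GRCm38, the same assembly as mm10). Each column was matched to a library by tissue and number; the thymus replicate 2 column has a prefix that no label accounts for.

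The members and lists were chosen with earlier results of these data known, though the members were taken by name and not by a measured value. All members are named whatever their values. From each other list the text names genes past the threshold in any comparison and BCL2 relatives by level. Casp9, Diablo, Pim2, Usp9x, Bcl2l2, Pmaip1, Il2rb, Il2rg and Il15ra were named after their values were seen. Genes most like Bcl2, Bcl2l11, Mcl1 and Bax are the 3 highest correlations, leaving out unnamed models and receptor segments. Intervals are of 95% from the fit, and the limit for a count of 0 is 3 reads and covers counting error only.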

Additional observations from a re-analysis of the deposited data

How the results depend on the processing

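Of 27 member fold changes, 14 kept their sign in all 21 alternatives and 13 did not; members passed in no setting except array weights, where Bcl2 passed in liver against spleen (1 member) and in the test of any tissue (adjusted p = 0.0363 by limma). Among all genes, liver against thymus called 43, with 22 by edgeR, 465 by DESeq2, 12 with only the 6 samples compared, and 8 to 151 without single libraries. Spleen against thymus called 53, with 515 by DESeq2, 16 from 6 samples and 9 to 140 without single libraries. Liver against spleen called 2, with 22 by DESeq2, 6 from 6 samples, 18 with array weights and 0 to 3 without single libraries, 0 being without liver replicate 1 or 3, where 319 and 330 genes had an unadjusted p under 0.05. Any tissue called 46, with 30 by edgeR, 363 by DESeq2, 74 with array weights and 18 to 74 without single libraries. The highest counts against thymus were without thymus replicate 3; each liver library lowered the liver against thymus count to 9 or fewer, and each spleen library the spleen against thymus count to 14 or fewer. The cause was not tested. With equal library totals the spleen against thymus calls split 22 higher and 16 lower, against 25 and 28, and the median over all genes moved from 0.33 to 0.48 (log2); with edgeR it was 0.03.

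The sign of member values turned as follows, on the log2 scale. Mcl1 in liver against thymus was 0.011 with equal totals without mitochondrial genes. Bbc3 in the same comparison was 0.14 with array weights. In spleen against thymus Bid was -0.016 at a pseudocount of 2, -1.89 by edgeR, -1.92 by DESeq2 and -1.04 with array weights, and Bbc3 was -0.081 at a pseudocount of 0.5, -0.68 by edgeR and -0.75 by DESeq2. Bax in liver against spleen was 0.32 with array weights. Leaving out single libraries, liver against thymus ran from -0.41 to 0.14 for Mcl1, -2.00 to 0.14 for Bax, -1.92 to 0.75 for Bbc3 and -1.06 to 1.92 for Bad. Spleen against thymus ran from -0.15 to 2.59 for Bcl2l1, -0.96 to 0.19 for Bax, -0.17 to 0.68 for Bcl2l11, -2.04 to 2.21 for Bid and -1.02 to 1.76 for Bbc3. Liver against spleen ran from -0.031 to 1.09 for Bcl2l1, -1.50 to 0.64 for Bax, -0.12 to 0.65 for Bcl2l11 and -2.63 to 0.081 for Bbc3.

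Libraries share replicate numbers, and those numbered 2 share high Xist with at most 21 Y-linked reads in each tissue. Same-numbered libraries deviated with correlations of -0.000732 to 0.0891 over 9 pairs. Of 9 libraries, 4 correlated best with their own number. With the replicate number as a block, 42, 55, 4 and 45 genes were called in liver against thymus, spleen against thymus, liver against spleen and any tissue, and 0 members. With a term for the libraries numbered 2 alone, 40, 55, 3 and 43 were called in the same order, and 0 members. Bid, Bbc3 and Bad rested on few reads in several libraries, deep ones among them. Bid had no read in thymus replicate 1, of 25024424 reads, but 47 in liver replicate 3, of 3877572. Bbc3 had no read in spleen replicate 1, of 37162647 reads, but 83 in thymus replicate 1. The low depth of liver replicate 3 limits its own low counts.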
